A study of Mus musculus with 6 samples.

Results

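The immediate early genes that neuronal activity switches on were examined in RNA bound to phosphorylated ribosomes from the vBNST of mice (the ventral part of the bed nucleus of the stria terminalis), a small nucleus of the extended amygdala that takes part in anxiety-like states. A list of 33 genes was looked up by gene name among the 29547 rows of the deposited expression table, and every gene was found. By role the list falls into 17 rapid transcription factors (the Fos, Jun, Egr and Nr4a families, Npas4, Klf2, Klf4 and Maff) and 10 feedback regulators (Ier2, Ier3, Ier5, Dusp1, Dusp6, Btg2, Gadd45b, Gadd45g, Sik1 and Trib1). The remaining 6 are effectors, that is, products that act at synapses, in signalling or outside the cell (Arc, Ptgs2, Nptx2, Inhba, Arl4d and Rasd1).

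The study precipitated ribosomes with an antibody against the phosphorylated form of S6, which belongs to the small subunit of the ribosome, and sequenced the bound RNA after rRNA depletion with a stranded kit. Tissue was taken 90 min after a behavioural test with a cue of the CS+ or the CS- kind, the study's setting being unpredictable threat. There were 6 libraries, 3 with the group label Con and 3 with the group label CS. The labels do not say which cue the CS mice met, what the Con mice experienced, or the strain, genotype, sex or age of the animals. Nothing in them ties the libraries of 1 group to different animals. The p-values below therefore weigh differences against the spread of these samples alone, and that spread may be technical. In the labels the catalogue number of the antibody climbs by 1 equal step from sample to sample, so the labels leave unsettled whether a single antibody was used. No library of unprecipitated tissue was analysed here, so a level in the precipitate cannot be set against the level in the tissue. In bulk samples of this kind, fewer cells of a type and less RNA per cell cannot be told apart.

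Immediate early genes are transcribed within minutes of synaptic input, without the need for new protein. Calcium and cAMP activate kinases that phosphorylate CREB, which sits on cAMP response elements, and the SRF and Elk factors, which sit on serum response elements. The transcription factors made first then act on later genes, the feedback regulators dampen kinase signalling or growth, and effectors such as Arc change synapses. Phosphorylation of S6 also follows neuronal activity, which is why ribosomes that carry it are used to draw RNA from active cells, and Fos is the most widely used marker of such cells.

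The promoters of a few of these genes are shown because the cAMP response element is the best-known link between activity and their transcription. They are 150-base stretches of RefSeq (build GRCm38.p6), 5′ to 3′ on the strand of the gene. Capitals mark the full cAMP response element TGACGTCA, its core TGACG on either strand (CGTCA on the reverse strand, and also contained in the full element), and, read on the gene's strand only, the TATA box TATAAA. Fos, Junb and Nr4a1 stand for the transcription factors, Dusp1 and Ier5 are the feedback regulators with the smallest p-values below, and Arl4d is the effector with a full element.
Fos (chr12:85473740-85473889, plus strand): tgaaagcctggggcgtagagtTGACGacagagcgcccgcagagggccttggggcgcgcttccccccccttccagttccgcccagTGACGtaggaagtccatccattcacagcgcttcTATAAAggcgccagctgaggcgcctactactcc
Junb (chr8:84978749-84978898, minus strand): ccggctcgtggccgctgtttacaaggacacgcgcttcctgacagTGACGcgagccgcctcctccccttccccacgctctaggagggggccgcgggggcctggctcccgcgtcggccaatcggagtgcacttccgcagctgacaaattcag
Nr4a1 (chr15:101266696-101266845, plus strand): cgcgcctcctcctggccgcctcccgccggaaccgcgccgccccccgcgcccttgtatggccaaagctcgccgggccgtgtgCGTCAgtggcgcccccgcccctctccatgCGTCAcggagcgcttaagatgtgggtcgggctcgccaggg
Dusp1 (chr17:26508520-26508669, minus strand): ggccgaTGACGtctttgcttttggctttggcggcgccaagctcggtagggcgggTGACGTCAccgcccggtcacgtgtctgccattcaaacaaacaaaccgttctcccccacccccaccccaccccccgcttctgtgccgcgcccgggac
Ier5 (chr1:155099637-155099786, minus strand): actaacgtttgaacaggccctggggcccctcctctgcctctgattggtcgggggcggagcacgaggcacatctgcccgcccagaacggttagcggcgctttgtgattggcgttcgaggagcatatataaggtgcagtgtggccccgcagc
Arl4d (chr11:101665391-101665540, plus strand): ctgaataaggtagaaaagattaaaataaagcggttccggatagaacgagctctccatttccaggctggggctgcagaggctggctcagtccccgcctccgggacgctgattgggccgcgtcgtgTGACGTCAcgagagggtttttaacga
The Dusp1 stretch ends 48 bases upstream of the RefSeq start and the others end 1 base upstream of it.

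RefSeq promoters were matched for 25 of the 33 genes, and the 250 bases upstream of the start were searched on both strands unless stated. The core TGACG was present in 15 of the 25, or 60% of them, against 19.8% of the promoters of all 27025 genes in the table. It was found in 12 of 15 transcription factors, 2 of 7 feedback regulators and 1 of 3 effectors. The full element was present in 4 of the 25 (Arl4d, Btg2, Dusp1 and Maff), or 16%, against 1.77% of all genes. The CArG box, to which SRF binds, was found within these 250 bases in Egr2 alone of the 25, or 4%, against 1.62%. Sites farther upstream were not searched. TATAAA on the gene's strand was found in Fos, Gadd45b, Gadd45g and Inhba, or 16%, against 8.94%, and the AP-1 site TGANTCA, on which Fos and Jun proteins act, in 0 of 25 against 7.82%. These counts describe letters in a fixed window, and base composition was not matched.

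The libraries were shallow, so the reads behind each gene are given first. RPKM (reads scaled to a kilobase of gene and to 1e6 assigned reads) was turned back into whole reads, and the libraries held between 765769 and 2342686 assigned reads, with Con 1 the shallowest and CS 3 the deepest. A single read on a gene of 1 kilobase was worth between 0.427 and 1.31 RPKM. Over all libraries the 33 genes held 4519 reads, of which the transcription factors had 3140, the feedback regulators 874 and the effectors 505. Jund alone held 1221 of them and Arc 254 of the effector reads. Reads numbered 60 or more for 17 genes, and 20 genes had a read in every library. The number of genes without a read was 10 in Con 1, 3 in Con 2 and 2 in Con 3, and 4, 5 and 1 in CS 1, 2 and 3. At this depth the absence of reads from a library allows up to 3 reads, a limit that covers counting error only.

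By share of all reads, no class separated the groups. The transcription factors took 0.0372% ± 0.00425 of the assigned reads in Con and 0.0364% ± 0.00607 in CS (SD, n = 3 each). The feedback regulators took 0.00932% ± 0.000973 in Con and 0.0103% ± 0.000791 in CS, and the effectors 0.00485% ± 0.00141 in Con and 0.00648% ± 0.000799 in CS. For the effectors, the Con libraries held 0.00366%, 0.00641% and 0.00448% and the CS libraries 0.00722%, 0.00659% and 0.00563%, so that Con 2 lay among the CS libraries and the other Con libraries below them.

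**Figure D1:**
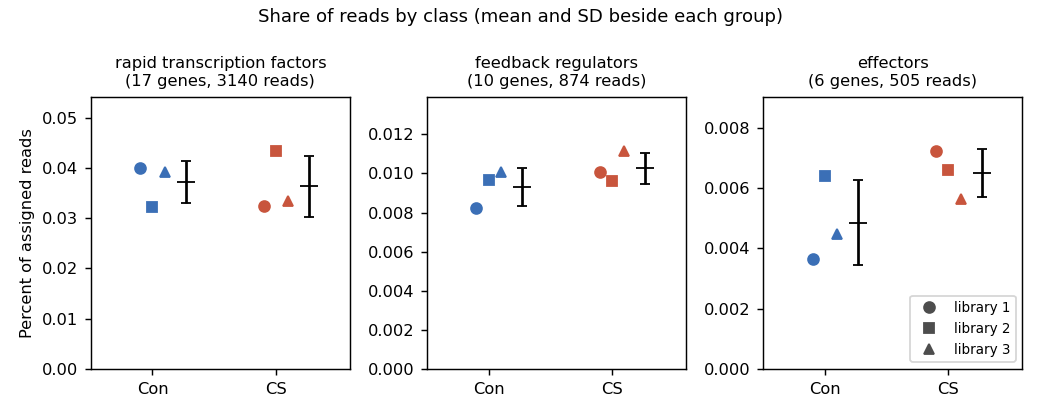
Percent of assigned reads (vertical axes, each starting at 0) that fell on each class in the 3 Con and 3 CS libraries, marked by symbol, with the mean and SD of each group beside them. The groups overlap in all 3 panels, and the effector shares of Con 1 and Con 3 lie below those of the CS libraries.

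No gene of the list differed between CS and Con past the threshold. Of the 33 genes, 32 passed the filter of a mean of 0.5 RPKM over all 6 libraries, and Egr2 did not. In limma's fit on log2(RPKM + 0.1) after median scaling, 0 of the 32 reached an adjusted p of 0.05, with adjusted p-values from 0.232 to 0.987, beside 0.968% of all 20550 rows tested. At an unadjusted p under 0.05, 2 of the 32 were lower in CS (Dusp1 and Ier5), against 8.77% of all rows, and 0 were higher, against 3.77% of all rows. With voom, limma's read-based weighting, on the 17 genes with at least 60 reads, 0 were called with median scaling, against 6.55% of all rows in that fit, and the smallest adjusted p was 0.130. With library totals as the scaling instead 0 of 17 were called, against 5.02% of all rows, and the smallest adjusted p was 0.161. At an unadjusted p under 0.05, 2 of the 17 genes passed in the former voom fit (Egr3 and Ier5), against 2036 of 10456 rows. In the latter fit 1 of 17 passed (Arc), against 3188 of 10456 rows. These 10456 are the rows of the voom fits that the main fit also tested.

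Estimates below 0, that is, lower in CS, were more frequent than estimates above 0 on the scaled values. There were 19 negative and 13 positive estimates, with a median of -0.38 on the log2 scale, against 0.03 for all rows. Median scaling removed a shift of 0.37 by which CS lay above Con in the deposited values, and this choice sets the sign of several genes: as deposited, 16 estimates were above and 16 below 0, with a median of -0.0055 against 0.41 for all rows. The median of the list lay 0.41 below that of all rows (difference -0.412). The scaling shifts the estimates of all rows alike, so this difference is the same on either scale by construction. The leave-one-library-out values of this difference ran from -0.37 to -0.12, the value nearest to 0 being that without CS 1. By class, the transcription factors had 5 positive and 11 negative estimates (median -0.38), the feedback regulators 5 and 5 (median -0.15) and the effectors 3 and 3 (median -0.17). The median of the transcription factors lay 0.20 below that of the effectors (difference -0.20), and without single libraries this difference ran from -1.02, without CS 2, to 0.045, so the order of rapid factors and effectors was not settled.

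**Figure D2:**
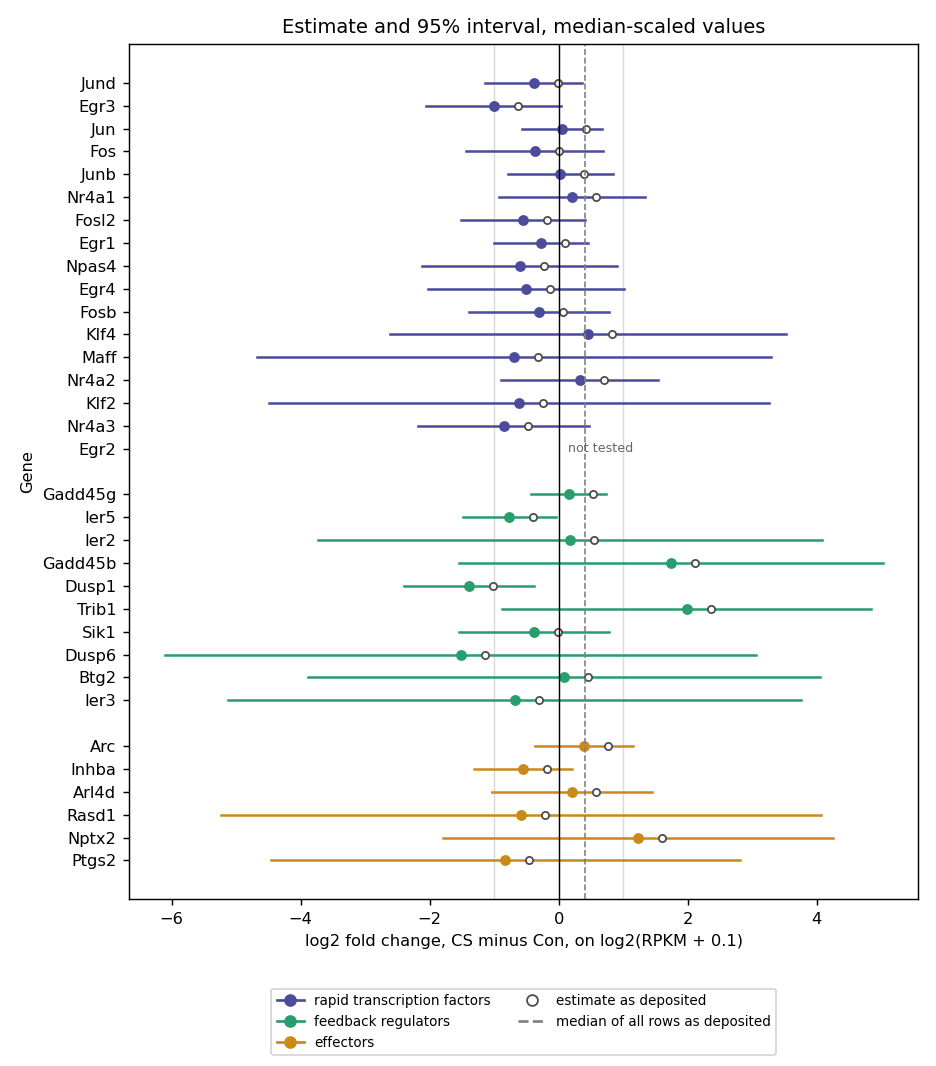
log2 fold change, CS minus Con, on log2(RPKM + 0.1) (horizontal axis) with its 95% interval for the 32 tested genes by class, filled after median scaling and open as deposited. The dashed line is the median of all rows as deposited, 0.41, and grey lines mark 2-fold changes. Only the intervals of Dusp1 and Ier5 exclude 0, before adjustment over all rows.

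The intervals were wide for genes with a library at 0. Among the 20 genes with a read in every library the standard error of the log2 fold change was 0.24 to 0.63, and among the 12 tested genes with a library at 0 it was 1.19 to 1.94. Within the former the error did not simply follow the reads, since Egr3 had 0.44 on 405 reads and Inhba 0.31 on 92. After median scaling, the upper end of the unadjusted 95% interval lay below a 2-fold rise for 15 of the 32 genes. For 3 of them (Jun, Junb and Gadd45g) the whole interval lay within 2-fold in both directions. For 13 genes the interval held a 2-fold rise and a 2-fold fall. These limits move with the scaling. As deposited, the upper end lay below a 2-fold rise for 8 genes. For 3 of these (Jund, Egr1 and Inhba, not the 3 above) the whole interval lay within 2-fold, and for 15 genes it held both changes.

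**Figure D3:**
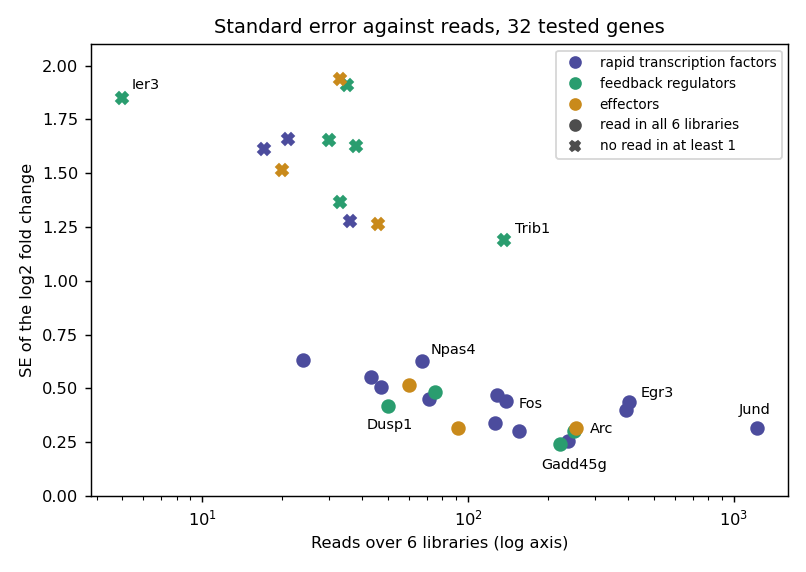
Standard error of the log2 fold change (vertical axis) against the reads of each tested gene over 6 libraries (horizontal log axis), coloured by class. Genes with a read in all libraries (circles) have errors of 0.24 to 0.63, and genes with no read in at least 1 library (crosses) 1.19 to 1.94, Trib1 among them despite 137 reads.

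Per length, Jund, Egr3 and Gadd45g were the most abundant genes of the list in both groups, and Egr2, Ptgs2 and Ier3 the least. Levels from here on are RPKM after median scaling, and fold changes are log2, CS minus Con, with their standard error. Among the 20 genes read everywhere, the highest level was most often in Con 1 and Con 3, with 7 genes each, and the lowest most often in CS 3, with 7 genes. This too depends on the scaling: a CS library was highest for 5 of the 20 genes after median scaling and for 13 as deposited, where CS 2 was highest for 6.

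**Figure D4:**
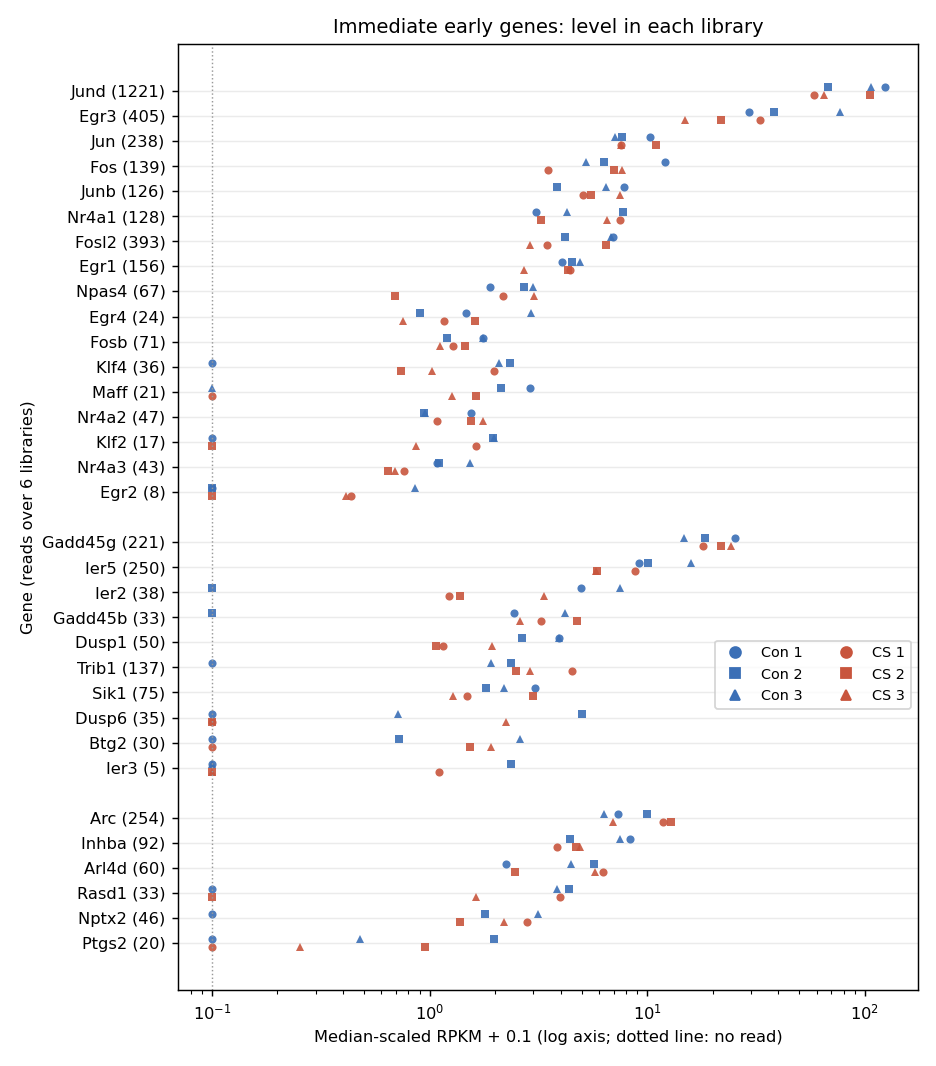
Median-scaled RPKM plus 0.1 (horizontal log axis) of each gene in each library, with Con in blue, CS in red and the library number as symbol; the number beside each name is its reads over 6 libraries. Points on the dotted line are libraries without a read. The groups overlap for most genes, and Jund, Egr3 and Gadd45g lie farthest to the right in their classes.

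Fos encodes the AP-1 subunit most used to mark active neurons. Its row (chr12:85473890-85477273) held 19, 17 and 14 reads in Con 1, 2 and 3 and 14, 25 and 50 reads in CS 1, 2 and 3. Its level was 11.9, 6.21 and 5.14 RPKM in Con and 3.39, 6.94 and 7.53 RPKM in CS. Con 1 was highest and CS 1 lowest, and the groups overlapped. This gave a log2 fold change of -0.37 ± 0.44 (adjusted p = 0.788), and the interval reached from 0.371-fold to 1.62-fold. The sign of this estimate depended on the scaling, being 0.0032 as deposited. Fosb, its close relative, was at 1.47 ± 0.322 RPKM in Con and 1.19 ± 0.169 in CS (SD, n = 3) on 71 reads.

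Fosl2, a further partner of Jun proteins in AP-1, lies at chr5:32135801-32157842. It held 45, 46 and 75 reads in Con and 57, 94 and 76 reads in CS. Its level was 6.88, 4.08 and 6.69 RPKM in Con and 3.35, 6.34 and 2.78 RPKM in CS. CS 1 and CS 3 lay below every Con library and CS 2 lay between Con 2 and Con 3, with a log2 fold change of -0.55 ± 0.40 (adjusted p = 0.649). The 3 Fos family genes together made up 74.2 ± 17.1 reads per 1e6 in Con and 70.5 ± 23.1 in CS, without median scaling.

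Jund, the Jun protein that neurons hold at a high resting level, lies at chr8:70698949-70700616. It held 139, 131 and 206 reads in Con and 170, 270 and 305 in CS. Its level was 123, 67.5 and 107 RPKM in Con and 58.0, 106 and 64.7 RPKM in CS. Con 1, Con 3 and CS 2 were high and the other libraries low, so the groups overlapped, with a log2 fold change of -0.39 ± 0.31 (adjusted p = 0.688). The row shares 877 bases of exon, or 52.6% of its length, with Gm11175 on the opposite strand, which held 906 reads. Since the sources used here do not say whether reads were counted by strand, the reads of this pair cannot be told apart.

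Jun, the partner of Fos in AP-1, lies at chr4:95049034-95052222. It held 22, 28 and 26 reads in Con and 42, 53 and 67 reads in CS. Its level was 10.2, 7.54 and 7.04 RPKM in Con and 7.5, 10.9 and 7.44 RPKM in CS. Con 1 and CS 2 were high and the other 4 libraries were close together, with a log2 fold change of 0.05 ± 0.26 (adjusted p = 0.954). Junb was as even, at 5.94 ± 2.03 RPKM in Con and 5.91 ± 1.30 in CS (SD, n = 3) on 126 reads. Opposite-strand rows also overlap Jun by 232 bases (Junos, 12 reads) and Junb by 173 bases (Prdx2, 167 reads), and no other gene of the list had such an overlap.

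Egr3, a zinc finger factor induced by synaptic input, lies at chr14:70077445-70080157 and had the lowest estimate among the transcription factors. It held 28, 63 and 126 reads in Con and 82, 47 and 59 reads in CS. Its level was 29.2, 38.2 and 76.8 RPKM in Con and 33.0, 21.7 and 14.8 RPKM in CS. Con 3 was far above the rest and CS 3 lowest, and CS 1 lay between Con 1 and Con 2. Its log2 fold change was -1.01 ± 0.44 (adjusted p = 0.419), and -0.62 without Con 3. Over pooled reads per 1e6, without median scaling, CS was 0.556 times Con, with a 95% interval of 0.455 to 0.679 that covers counting error only and leaves out the spread between libraries.

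Egr1, the most studied gene of that family, was at 4.39 ± 0.428 RPKM in Con and 3.72 ± 0.962 in CS (SD, n = 3) on 156 reads, with a log2 fold change of -0.28 ± 0.30. Egr4 had 24 reads and Egr2 only 8. Nr4a3, an orphan nuclear receptor at chr4:48045153-48086447, held 4, 7 and 10 reads in Con and 7, 5 and 10 in CS. Its level was 0.988, 1.0 and 1.44 RPKM in Con and 0.666, 0.545 and 0.591 RPKM in CS, so every CS library lay below every Con library. With few reads behind it, its log2 fold change was -0.85 ± 0.55 (adjusted p = 0.597). Its relatives Nr4a1, on 128 reads, and Nr4a2, on 47, had estimates above 0, at 0.20 ± 0.47 and 0.33 ± 0.51.

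Npas4, a factor that responds to calcium entry and is largely limited to neurons, lies at chr19:4984355-4989971. It held 4, 10 and 11 reads in Con and 12, 3 and 27 reads in CS. Its level was 1.81, 2.62 and 2.90 RPKM in Con and 2.09, 0.598 and 2.92 RPKM in CS. CS 2 stood low and the other CS libraries lay within or just above the Con range. The log2 fold change was -0.61 ± 0.63 (adjusted p = 0.757), and 0.031 without CS 2. Klf2, Klf4 and Maff had 17, 36 and 21 reads, each with at least 1 library at 0. Klf2 and Klf4 are also factors of blood vessel endothelium, whose markers are given further on.

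Among the feedback regulators the estimates of Dusp1 and Ier5 lay lowest relative to their error. Dusp1, a phosphatase that inactivates MAP kinases, lies at chr17:26505590-26508519. It held 7, 8 and 12 reads in Con and 5, 4 and 14 reads in CS. Its level was 3.84, 2.55 and 3.84 RPKM in Con and 1.06, 0.968 and 1.84 RPKM in CS. Every CS library lay below every Con library. The log2 fold change was -1.39 ± 0.42 (unadjusted p = 0.0143, adjusted p = 0.232), and it stayed between -1.65 and -1.22 when single libraries were left out. The gene had 50 reads in all, too few for the voom fits. Pooled over reads per 1e6, without median scaling, CS was 0.547 times Con, with a counting interval of 0.30 to 0.991.

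Ier5, a nuclear regulator of the heat shock factor and of growth, lies at chr1:155096361-155099636. It held 20, 38 and 60 reads in Con and 50, 29 and 53 reads in CS. Its level was 9.03, 9.97 and 15.8 RPKM in Con and 8.69, 5.78 and 5.73 RPKM in CS. CS 1 lay just below Con 1 and the other CS libraries well below, so the groups did not overlap, though they did on the values as deposited. The log2 fold change was -0.76 ± 0.30 (unadjusted p = 0.0411, adjusted p = 0.370), and voom gave -0.81 (adjusted p = 0.165).

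Gadd45g, a protein of the stress response linked to DNA demethylation, lies at chr13:51846678-51848468. It held 20, 25 and 20 reads in Con and 37, 39 and 80 reads in CS. Its level was 25.2, 18.3 and 14.7 RPKM in Con and 18.0, 21.7 and 24.1 RPKM in CS. Con 1 was highest and Con 3 lowest, with the CS libraries between them, and the log2 fold change was 0.15 ± 0.24 (adjusted p = 0.828). Sik1, a kinase that holds CREB coactivators out of the nucleus, lies at chr17:31844248-31855792. It held 9, 9 and 11 reads in Con and 11, 20 and 15 in CS. Its level was 2.95, 1.71 and 2.1 RPKM in Con and 1.39, 2.90 and 1.18 RPKM in CS. CS 1 and CS 3 lay below the Con range and CS 2 within it, with a log2 fold change of -0.39 ± 0.48 (adjusted p = 0.794).

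Trib1, a pseudokinase that targets proteins for degradation, lies at chr15:59648350-59656550 and had the highest estimate of the list. It held 0, 15 and 12 reads in Con and 44, 21 and 45 reads in CS. Its level was 0, 2.26 and 1.82 RPKM in Con and 4.4, 2.41 and 2.80 RPKM in CS. Every CS library lay above every Con library, CS 2 by little. With Con 1 at the offset, the log2 fold change was 1.98 with an error of 1.19 (adjusted p = 0.565), and it was 0.55 without Con 1. At the rate of Con 2 and Con 3 together, Con 1 would have held 7.87 reads. Over pooled reads per 1e6, without median scaling, CS was 2.62 times Con, with a counting interval of 1.70 to 4.15. The median log2 fold change of all rows was 0.41 as deposited.

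In all, the groups did not overlap after median scaling for 1 of the 32 tested genes with CS higher (Trib1), against 7.93% of all rows, and for 3 with CS lower (Nr4a3, Ier5 and Dusp1), against 11.2%. As deposited, Trib1 was again the single gene with CS higher, against 18.5% of all rows, and Nr4a3 and Dusp1 were the 2 with CS lower, against 6.5%. The remaining feedback regulators rested on few and uneven reads. Dusp6, a phosphatase specific for ERK, held 16 reads in Con 2, 17 in CS 3 and 2 in Con 3, and was without a read in Con 1, CS 1 and CS 2. Btg2, an antiproliferative regulator of mRNA decay, held 14 of its 30 reads in CS 3. It was without a read in Con 1 and in CS 1, where the rate of the other CS libraries would have given 8.52 reads. Ier2 had no read in Con 2, against 9.86 at the rate of the other Con libraries, and 38 in all. Gadd45b had 33 reads and Ier3 had 5.

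Arc, the effector that binds at synapses and removes AMPA receptors, had the most reads of its class. Its row (chr15:74669083-74672570) held 15, 35 and 22 reads in Con and 63, 60 and 59 reads in CS. Its level was 7.26, 9.84 and 6.21 RPKM in Con and 11.7, 12.8 and 6.83 RPKM in CS. CS 1 and CS 2 lay above every Con library and CS 3 below Con 1 and Con 2. The log2 fold change was 0.40 ± 0.32 (adjusted p = 0.685), and it stayed between 0.23 and 0.67 when single libraries were left out. Over pooled reads per 1e6, without median scaling, CS was 1.62 times Con, with a counting interval of 1.23 to 2.16. On the values as deposited the median log2 fold change of all rows was itself 0.41, so this ratio is not a rise relative to other genes. With voom on library totals the adjusted p of Arc was 0.161, the smallest of the list in that fit.

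Inhba, the subunit of the secreted factor activin A, lies at chr13:16011851-16027211. It held 11, 10 and 17 reads in Con and 13, 14 and 27 reads in CS. Its level was 8.22, 4.34 and 7.41 RPKM in Con and 3.74, 4.62 and 4.83 RPKM in CS. Con 1 and Con 3 lay above the CS libraries and Con 2 among them, with a log2 fold change of -0.55 ± 0.31 (adjusted p = 0.541). Arl4d, a small GTPase of the ARF family, lies at chr11:101665541-101667832. It held 2, 9 and 7 reads in Con and 15, 5 and 22 reads in CS. Its level was 2.14, 5.59 and 4.37 RPKM in Con and 6.18, 2.36 and 5.64 RPKM in CS. Con 1 and CS 2 were low and the other libraries alike, with a log2 fold change of 0.20 ± 0.52 (adjusted p = 0.907).

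Nptx2, a secreted pentraxin that clusters AMPA receptors, lies at chr5:144545902-144557478. It held 0, 5 and 9 reads in Con and 12, 5 and 15 reads in CS. Its level was 0, 1.69 and 3.06 RPKM in Con and 2.69, 1.29 and 2.09 RPKM in CS. Con 1 had no read and Con 3 was highest, so the groups overlapped. On these values the log2 fold change was 1.23 ± 1.26 (adjusted p = 0.753), and it turned to -0.26 without Con 1. Ptgs2, the inducible cyclooxygenase, held 10 of its 20 reads in Con 2, and Rasd1, a Ras-like protein induced by glucocorticoid, was without a read in Con 1 and CS 2 and held 33 elsewhere.

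Set against the transcription factors, the effectors held more reads in CS 1, 2 and 3 than in Con 1 and Con 3. Per 100 reads of the transcription factors without Jund, they held 16.7, 30.0 and 18.1 reads in Con and 33.4, 28.0 and 27.6 reads in CS. Con 2 lay above CS 2 and CS 3, so the groups overlapped. With Jund included the values were 9.12, 19.8 and 11.4 in Con and 22.3, 15.2 and 16.9 in CS. Arc held 44.5 ± 9.64 of each 100 effector reads in Con and 55.5 ± 11.0 in CS (SD, n = 3). Without Arc, the effectors made up 27.1 ± 9.21 reads per 1e6 in Con and 28.5 ± 5.66 in CS, a difference below the spread between libraries.

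**Figure D5:**
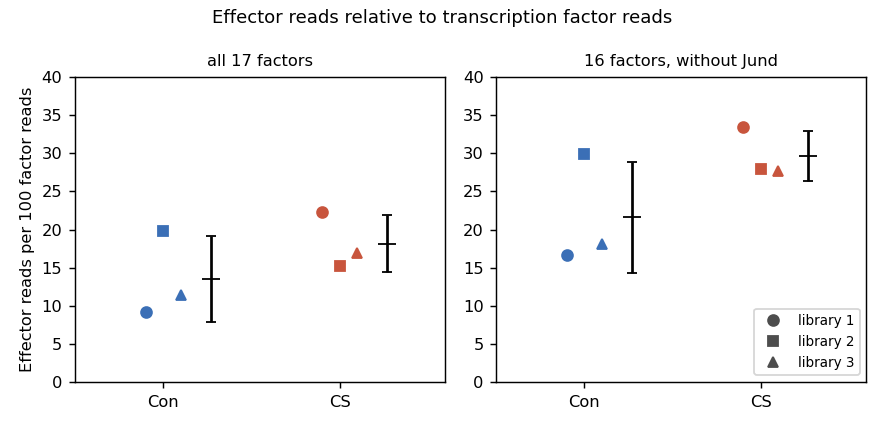
Effector reads per 100 reads of all 17 transcription factors (left) and of the 16 without Jund (right) in each Con and CS library, with the mean and SD of each group. On both sides Con 2 lies among the CS libraries and Con 1 and Con 3 lie below them.

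A wider list of 29 activity-regulated genes outside the 33 gave the same count of calls. Of these, 28 were tested and 0 were called by limma, with 1 higher and 3 lower at an unadjusted p under 0.05 and a median log2 fold change of -0.21. All rows gave 3.77% higher and 8.77% lower at that p. With voom and median scaling 2 of 14 were called lower, in a fit that called 6.55% of all rows, 658 of its 685 calls being lower in CS. With library totals the calls over all rows were 272 higher and 253 lower. Mcl1, an antiapoptotic BCL2 relative, was at 33.8, 21.9 and 40.7 RPKM in Con and 13.3, 17 and 12.4 RPKM in CS. Its log2 fold change was -1.13 ± 0.27 (adjusted p = 0.132 by limma and 0.0219 by voom). Rheb, the GTPase that activates mTORC1, was at 7.28, 9.68 and 6.60 RPKM in Con and 3.47, 4.82 and 2.48 RPKM in CS. Its log2 fold change was -1.15 ± 0.32 (adjusted p = 0.201 by limma and 0.0247 by voom). For both, the CS libraries all lay below the Con libraries, and neither was called with voom on library totals. Sertad1, a cell cycle regulator, had 0 reads in Con and 10 in CS. Bdnf, a late effector named here after its reads were seen, had 1 read in Con and 16 in CS, 14 of them in CS 3, and was not tested.

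Of 27 regulators that act upstream of immediate early genes, 0 were called by limma, with 2 higher and 4 lower at an unadjusted p under 0.05, against 3.77% and 8.77% of all rows, and a median of -0.12. Srf, the factor of serum response elements, was at 21.0, 16.2 and 16 RPKM in Con and 7.24, 9.41 and 10.1 RPKM in CS, every CS library below every Con library. Its log2 fold change was -0.99 ± 0.22 (adjusted p = 0.107 by limma and 0.0242 by voom with median scaling, the single call of the list there). Mapk3, which encodes the kinase ERK1, had a log2 fold change of -1.29 ± 0.29 on 88 reads (adjusted p = 0.117 by limma and 0.0591 by voom). With voom on library totals Srf was not called, and 2 genes were called higher. Of these, Map2k2, the kinase MEK2, had an adjusted p of 0.0482, and Grin1, the obligatory NMDA receptor subunit, named after its value was seen, 0.0380.

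Rps6, which encodes the precipitated protein S6, was at 122, 131 and 87.1 RPKM in Con and 149, 133 and 179 RPKM in CS. The CS libraries lay above the Con libraries, with a log2 fold change of 0.45 ± 0.21 (adjusted p = 0.445). Markers of neurons summed to 177 to 211 RPKM in Con and 207 to 227 in CS, and those of GABAergic neurons, the main type of this nucleus, to 29.8 to 35.9 and 32.8 to 49.0. No endothelial marker passed an unadjusted p of 0.05, and 0 were called by limma. The summed level of 6 of them was 4.97 to 6.77 RPKM in Con and 2.27 to 3.34 in CS, without overlap, on 192 reads in all, with Cldn5 at 0 in Con 1, Con 2, CS 1 and CS 2. The summed levels of the markers of astrocytes, microglia, glutamatergic neurons and ependymal cells overlapped between the groups. Taken singly, microglial Cx3cr1 and ependymal Foxj1 were lower in every CS library than in every Con library, as were 11.2% of all rows. Neuronal Tubb3 and GABAergic Gad1 were higher in every CS library than in every Con library, as were 7.93% of all rows. Of the 6 microglial markers, 3 had estimates above 0 and 3 below (median 0.23). The other ependymal marker tested, Ccdc153, had an estimate of 0.09. Over all the marker lists reported here, neuronal and endothelial ones included, 0 genes were called by limma. The markers tested were 4 neuronal, 3 GABAergic, 2 glutamatergic, 5 astrocytic, 6 microglial, 5 endothelial and 2 ependymal. At an unadjusted p under 0.05, 1 of all these was higher (Gad1) and 2 were lower (Cx3cr1 and Foxj1), against 3.77% and 8.77% of all rows. With voom and median scaling 1 microglial (Cx3cr1) and 1 ependymal marker (Foxj1) were called lower, in a fit that called 6.55% of all rows. With voom on library totals, which called 5.02%, neither was called and Gad1, an enzyme of GABA synthesis, was called higher (adjusted p = 0.0341). The part of these cell types in the levels of the immediate early genes was not tested.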

How the data were processed

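The authors deposited RPKM for 29547 rows in 6 libraries, with position, strand and length. Trimming used Trimmomatic 0.36 and counting used featureCounts (Subread 1.5.1), on GRCm38 and mm10, per the submitters' processing notes. Which aligner ran, whether counting used strand, and whether duplicate reads were removed is not given in the sources used here. RPKM multiplied by length gave whole reads for 100% of values above 0 (tolerance 0.01 read).

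The 20550 rows whose mean RPKM reached 0.5 were tested, two-sided, on log2(RPKM + 0.1) after subtracting each library's median deviation, using limma 3.58.1 with a trended eBayes (R 4.3.3) and Benjamini-Hochberg adjustment over all rows at 0.05. All p-values called adjusted come from these fits or from limma voom on rows with at least 60 reads (10463). A fold change on this scale understates the change of low genes, and where a library holds no read the offset of 0.1 largely sets it. Intervals of pooled ratios are exact and binomial and cover counting error only. The members, classes and gene lists were chosen with earlier results of these data known. Library values are given for the 4 genes of each class with the most reads and the 2 with the smallest p, for up to 3 genes with the smallest p of each other list, and for Rps6, Fos, Arc and Npas4. Alternatives changed the filter, pseudocount, scaling or variance model, took the replicate number as a block, used voom, or left out each library in turn. The fits were run on simulated reads with known changes as a check of the code. A minimum share of called changes was required there of voom only, not of the main fit. Oligodendrocyte markers are not reported here.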

Additional observations from a re-analysis of the deposited data

How the results depend on the processing

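Under all 16 alternatives 0 genes of the list were called. Of the 32 tested genes, 16 kept the direction of their estimate in every setting in which they were fitted. The number of called rows over the whole table was 199, and it was 107 without the filter, 112 with a pseudocount of 1, 65 as deposited, 110 after quantile normalization, 685 with voom and median scaling, 525 with voom on library totals, and 8 to 297 with 1 library left out, lowest without CS 1. The split into higher and lower calls was 36 and 163. It was 35 and 30 as deposited, 37 and 73 after quantile normalization, and 27 and 658 with voom and median scaling. With voom on library totals it was 272 and 253. Without the trend in eBayes, on the same scaled values, 146 rows were called and the split was 111 and 35. The direction of most calls therefore turned with the variance model as well as with the scaling. With the replicate block 0 rows were called. Same-numbered libraries correlated negatively in their deviations from the group means (r from -0.404 to -0.0575 over 10456 rows). With 3 libraries per group these values cannot decide whether the numbers pair the samples, and the labels do not say. Class medians moved with the scaling and with single libraries. That of the transcription factors was -0.0056 as deposited and 0.040 with voom on library totals, and that of the feedback regulators was 0.22 and 0.28. With 1 library left out the median ranged from -0.39 to -0.21 for the transcription factors, from -0.57 to 0.29 for the feedback regulators and from -0.32 to 0.64 for the effectors, and the difference of transcription factors and effectors from -1.02 to 0.045. Estimates changed sign as deposited and with voom on library totals for Fos (0.0032 and 0.15), Fosb (0.072 and 0.049) and Egr1 (0.096 and 0.032). They did so with pseudocounts of 0.5 and 1 for Klf4 (-0.030 and -0.12) and Ier2 (-0.33 and -0.41), with a pseudocount of 1 for Btg2 (-0.012), and without the filter for Jun (-0.033), Junb (-0.054) and Btg2 (-0.00075). The causes were not tested. With 1 library left out, 14 genes changed sign in at least 1 case: Fos ranged from -0.62 to 0.0058, Jun from -0.12 to 0.19, Junb from -0.28 to 0.23, Npas4 from -1.04 to 0.031, Nr4a1 from -0.11 to 0.58, Klf2 from -2.01 to 0.63, Klf4 from -0.99 to 1.20, Maff from -2.14 to 0.66, Ier2 from -1.80 to 1.30, Btg2 from -1.14 to 1.51, Gadd45g from -0.035 to 0.34, Nptx2 from -0.26 to 2.16, Arl4d from -0.20 to 0.64 and Rasd1 from -2.32 to 1.04. The 95% interval of 13 tested genes held a 2-fold change in both directions.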
